A study of Mus musculus with 12 samples.

Results

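The comparison set blood LSK cells collected after G-CSF against blood LSK cells collected after CWHM-823+tGro-b. Its members were chosen by the treatment label, 3 arrays of each treatment, 6 of the 12 arrays in the series. LSK cells are the lineage-negative, Sca-1-positive, c-Kit-positive fraction that holds mouse haematopoietic stem and progenitor cells. G-CSF is the cytokine granulocyte colony-stimulating factor, and the labels give 9 injections over 5 days. CWHM-823+tGro-b pairs an inhibitor of the integrin VLA-4 with truncated Gro-beta, a ligand of the chemokine receptor CXCR2, and the labels give no time for it. The other 6 arrays held LSK cells from blood 1 hour after AMD3100, a CXCR4 antagonist, and LSK cells from the marrow of PBS-treated control mice. Every array came from male DBA2/J mice. Per the labels, red cells were depleted, cells were enriched with a kit and LSK cells were sorted by flow cytometry, and the RNA was amplified before labelling. The 2 treatments differ in agent, and any difference in their duration cannot be told apart from it. Blood of untreated mice was not analysed here. Whether a group's arrays stand for different mice is not stated in the labels, and the p-values therefore reflect the variation among these arrays, which may be technical.

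Mobilisation moves stem and progenitor cells out of the marrow niche into blood. G-CSF does so over days, through its receptor on myeloid cells, STAT3 signalling and remodelling of the niche, in which the CXCL12 and VCAM-1 signals that retain stem cells are lowered. Blocking VLA-4, the integrin that binds VCAM-1, or stimulating CXCR2 on neutrophils releases cells far faster. LSK cells are a mixture of stem cells and of progenitors primed towards myeloid, lymphoid, erythroid or megakaryocytic fates.

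Each level below is the log2 signal of a gene's probe minus the array's 75th percentile of log2 signal, so 0 is a signal at that percentile and a difference of 1 is 2-fold. Levels of different genes are not comparable, since probes differ. A log2 difference is G-CSF minus CWHM-823+tGro-b, and a gene passed where limma's moderated test, with the slide as a block, gave a Benjamini-Hochberg adjusted p under 0.05. The 75th percentile of signal was 2188 to 2724 on the G-CSF arrays and 1910 to 2030 on the CWHM-823+tGro-b arrays, and 72.5% to 78.9% against 72.8% to 80.6% of probes were well above background. Replicate arrays correlated across genes at r = 0.944 to 0.955 for G-CSF and 0.938 to 0.945 for CWHM-823+tGro-b. All 12 of 12 LSK markers were above background on every array of both groups, and their summed level was 6.36 to 6.59 with G-CSF and 6.16 to 6.56 with CWHM-823+tGro-b. The number of arrays limits the precision of every value, with a median standard error of a difference of 0.23.

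Of 23700 genes tested, 523 passed, which is 2.21%. With G-CSF 266 were higher (1.12% of genes) and 257 lower (1.08%), relative to a median difference of all genes of -0.14. Among them 187 were at least 2-fold higher and 201 at least 2-fold lower, and 56 and 59 at least 4-fold. The sign was the same on all 3 slides for all 523, and the groups did not overlap for 471 of them, against 3140 of all genes (13.2%, with 6.46% higher and 6.78% lower with G-CSF). Without the slide as a block 149 genes passed, 88 higher and 61 lower. The split leaned to higher calls under other scalings, with 239 higher and 128 lower after quantile normalization. There were 224 and 100 with a normexp correction of background, and 150 and 85 with values from the authors' deposited table. Without G-CSF array 1 or 3, 129 and 146 genes passed. Of the 106 named genes that passed, 44 passed with each of the 12 arrays left out in turn. Not all of the others are described below. Where such a gene is described, the arrays whose removal ended its call are named, grouped or counted.

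**Figure D1:**
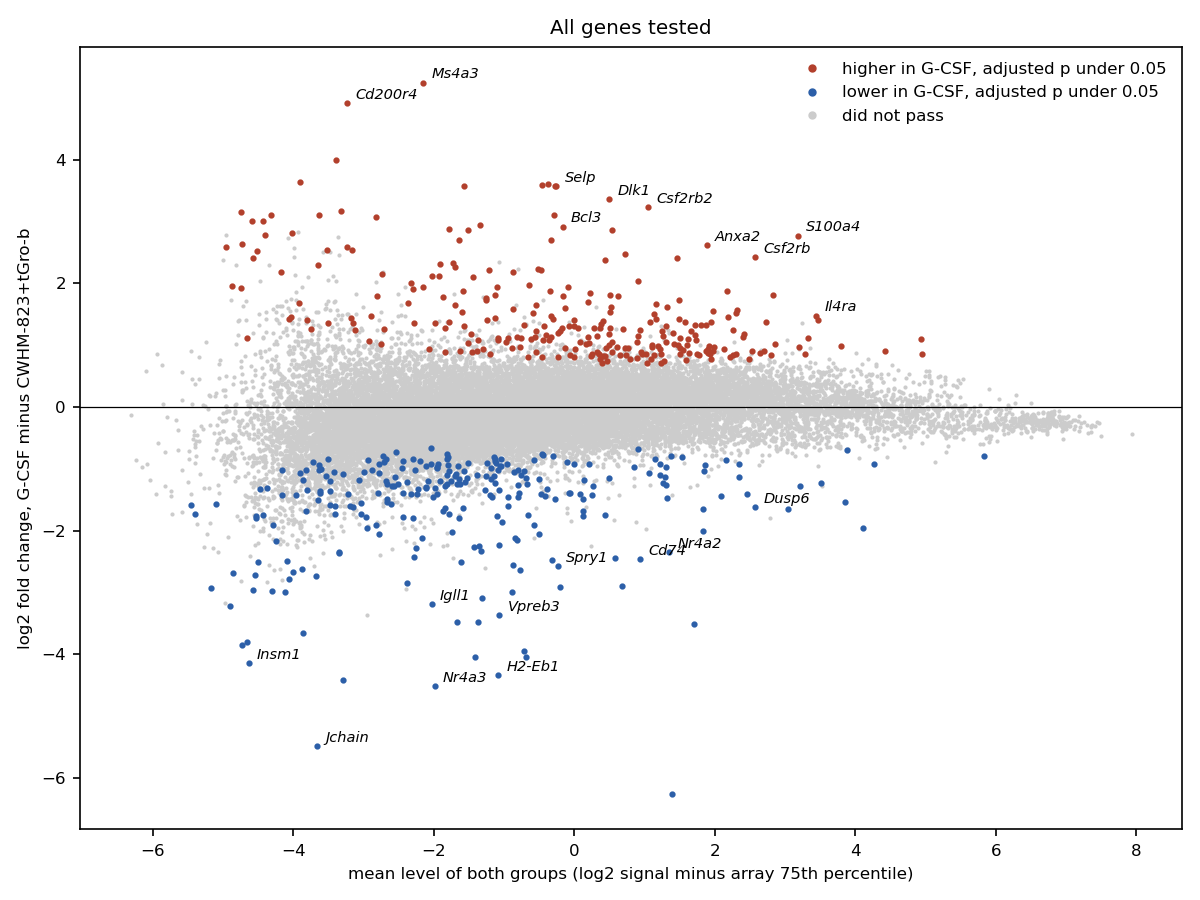
Each point is 1 of the 23700 genes tested, with the mean level of both groups (log2 signal minus the array's 75th percentile) on the x axis and the log2 difference, G-CSF minus CWHM-823+tGro-b, on the y axis. The 266 genes that passed higher (red) and the 257 that passed lower (blue) lie at all levels, and the named points include Csf2rb2, Selp, Dlk1, Nr4a3 and Vpreb3.

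The levels in the other groups are given as a description. For 257 of the 266 genes higher with G-CSF, the G-CSF mean was above the means of both the AMD3100 and the marrow arrays, and for 51 the CWHM-823+tGro-b mean was below both. For 230 of the 257 genes lower with G-CSF, the G-CSF mean was below both, and for 89 the CWHM-823+tGro-b mean was above both. Among called genes, most had G-CSF at the outer end of the 4 groups, and a minority had CWHM-823+tGro-b there. These genes were called for a difference between G-CSF and CWHM-823+tGro-b, which itself favours such places. The same shares over all genes were not computed, so the counts describe the called genes only.

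The common beta chain of the interleukin-3, interleukin-5 and GM-CSF receptors, and its mouse-specific interleukin-3 paralogue, were higher with G-CSF. Csf2rb2, the paralogue, had levels of 2.56, 2.45 and 2.98 on G-CSF arrays 1 to 3, against -0.85, -0.56 and -0.29 on CWHM-823+tGro-b arrays 1 to 3. The 3 G-CSF arrays lay far above the 3 others, with no overlap, and the AMD3100 and marrow means of -0.23 and -0.61 lay beside those of CWHM-823+tGro-b. The difference was 3.23 (SE 0.15, adjusted p = 3.94e-05), or 9.39-fold, and its probes spanned 1.50 to 3.23. Csf2rb, the shared beta chain, had 3.95, 3.35 and 4.06 with G-CSF and 1.50, 0.98 and 1.61 with CWHM-823+tGro-b. Again no array overlapped, with a difference of 2.42 (SE 0.15, adjusted p = 0.000244). The genes are near-identical neighbours, so their probes (mm9 chr15:78113126-78113185 for Csf2rb2 and chr15:78179504-78179563 for Csf2rb) may cross-hybridise. No exon annotation of mm9 was used here.

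Among 11 of the 15 largest increases with a promoter in the RefSeq table (GRCm38.p6, 250 bases before to 50 after the start), Csf2rb2 was the 1 that held the STAT motif TTCNNNGAA. That motif, searched on both strands, is in 9.55% of 27025 genes in the table. Selp was the 1 of 11 with the AP-1 motif TGANTCA (8.97% of genes), and none of 12 of the 15 largest decreases held either motif. The Csf2rb2 window is chr15:78305672-78305971 on the minus strand and the Selp window chr1:164115014-164115313 on the plus strand. They are shown as the matches of these motifs among the 23 promoters searched, with the match in capitals, at bases -15 to -7 from the start in Csf2rb2 and -139 to -133 in Selp. A match is a string of letters and shows no binding.
Csf2rb2: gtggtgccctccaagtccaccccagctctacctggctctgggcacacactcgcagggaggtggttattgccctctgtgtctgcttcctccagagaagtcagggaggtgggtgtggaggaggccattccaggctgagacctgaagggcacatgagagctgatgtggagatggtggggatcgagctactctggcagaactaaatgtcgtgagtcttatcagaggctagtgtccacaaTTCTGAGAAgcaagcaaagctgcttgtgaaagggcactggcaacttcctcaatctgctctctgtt
Selp: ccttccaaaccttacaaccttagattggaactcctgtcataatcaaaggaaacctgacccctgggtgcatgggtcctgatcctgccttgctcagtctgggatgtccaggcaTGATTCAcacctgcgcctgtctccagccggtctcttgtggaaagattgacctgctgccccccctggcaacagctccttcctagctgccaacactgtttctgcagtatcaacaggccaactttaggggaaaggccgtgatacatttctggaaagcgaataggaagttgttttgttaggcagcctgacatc
Mrgpra2b was the 1 of 11 with GGANTTTCC, the NF-kB motif (1.45% of genes). TGACGTCA, the CArG box, TCACNCCAC, TTTGGCGC and TTTCCCGC were in 0 of the 11 and 0 of the 12 (0.585% to 2.03% of genes).

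Counts in this and later lists stand beside 1.12% of all genes higher and 1.08% lower. The lists were chosen with earlier results of these data known, so their counts and ranks may reflect that choice. Some genes are in several lists, so the lists are not independent. Of 26 cytokine receptor and MAPK feedback genes tested, 3 were higher and 2 lower, with a list median of -0.10. Without the slide block 1 was higher and 1 lower. Without any 1 of the 6 arrays 1 was higher, and without any but G-CSF 2, 1 was lower. Besides Csf2rb, the interleukin-1 receptor Il1r1 was higher by 1.65 (SE 0.29, adjusted p = 0.0258) and Il2rg, the common gamma chain, by 0.78 (SE 0.15, adjusted p = 0.0386); both calls ended without any 1 of the 6 arrays (highest adjusted p 0.124 and 0.177), and that of Il2rg also without single AMD3100 or marrow arrays. Spry1, a feedback inhibitor of receptor tyrosine kinase signalling, went the other way. It had levels of -1.43, -1.61 and -1.53 with G-CSF and 1.20, 1.02 and 0.94 with CWHM-823+tGro-b. The groups were tight and far apart. The difference was -2.58 (SE 0.16, adjusted p = 0.000244), or 5.97-fold lower with G-CSF, and the AMD3100 and marrow means were -1.04 and -3.79. Dusp6, the phosphatase that switches off ERK, counted with the immediate early genes, had 1.95, 1.47 and 1.87 with G-CSF against 3.38, 3.11 and 3.66, a difference of -1.62 (SE 0.19, adjusted p = 0.00388). Csf3r, the G-CSF receptor itself, did not pass, at -0.35 (95% interval -0.71 to 0.02, adjusted p = 0.212). The position of its probe lies on another chromosome than the gene, so its value is uncertain.

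Genes induced by G-CSF and STAT3 leaned higher with G-CSF: 5 of 21 tested passed higher and 0 lower, with a median of 0.39. The shares of all genes were 1.12% and 1.08%. Without the slide block 4 passed, and without G-CSF array 1 or 3, 3 did. Bcl3, an atypical IkappaB protein that acts as a transcriptional co-regulator, had levels of 1.37, 0.94 and 1.56 with G-CSF, against -1.51, -1.60 and -1.76 with CWHM-823+tGro-b. All 3 G-CSF arrays were high and the others alike and low, as were the AMD3100 and marrow means (-1.86 and -1.96). The difference was 2.92 (SE 0.20, adjusted p = 0.000295). Cebpd, a C/EBP factor induced by STAT3, had 0.18, -0.81 and -0.38 with G-CSF against -2.74, -3.26 and -3.66, a difference of 2.88 (SE 0.35, adjusted p = 0.00519). The survival kinase Pim2 was higher by 1.79 (SE 0.21, adjusted p = 0.00436). The related kinase Pim1 was higher by 1.13 (adjusted p = 0.0179, but 0.105 without G-CSF 3, and above the threshold also without G-CSF 1 or any CWHM-823+tGro-b array), and Il4ra, the interleukin-4 receptor, by 1.48 (adjusted p = 0.00832, but up to 0.0583 without G-CSF 1 or 3). The 0.0579 of Socs3, the feedback inhibitor of this receptor, and the 0.0797 of Stat3 missed the threshold, with differences of 1.35 and 0.62. For Socs3 the G-CSF arrays stood at 3.97, 3.70 and 4.08 and the CWHM-823+tGro-b arrays at 3.11, 2.79 and 1.79.

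**Figure D2:**
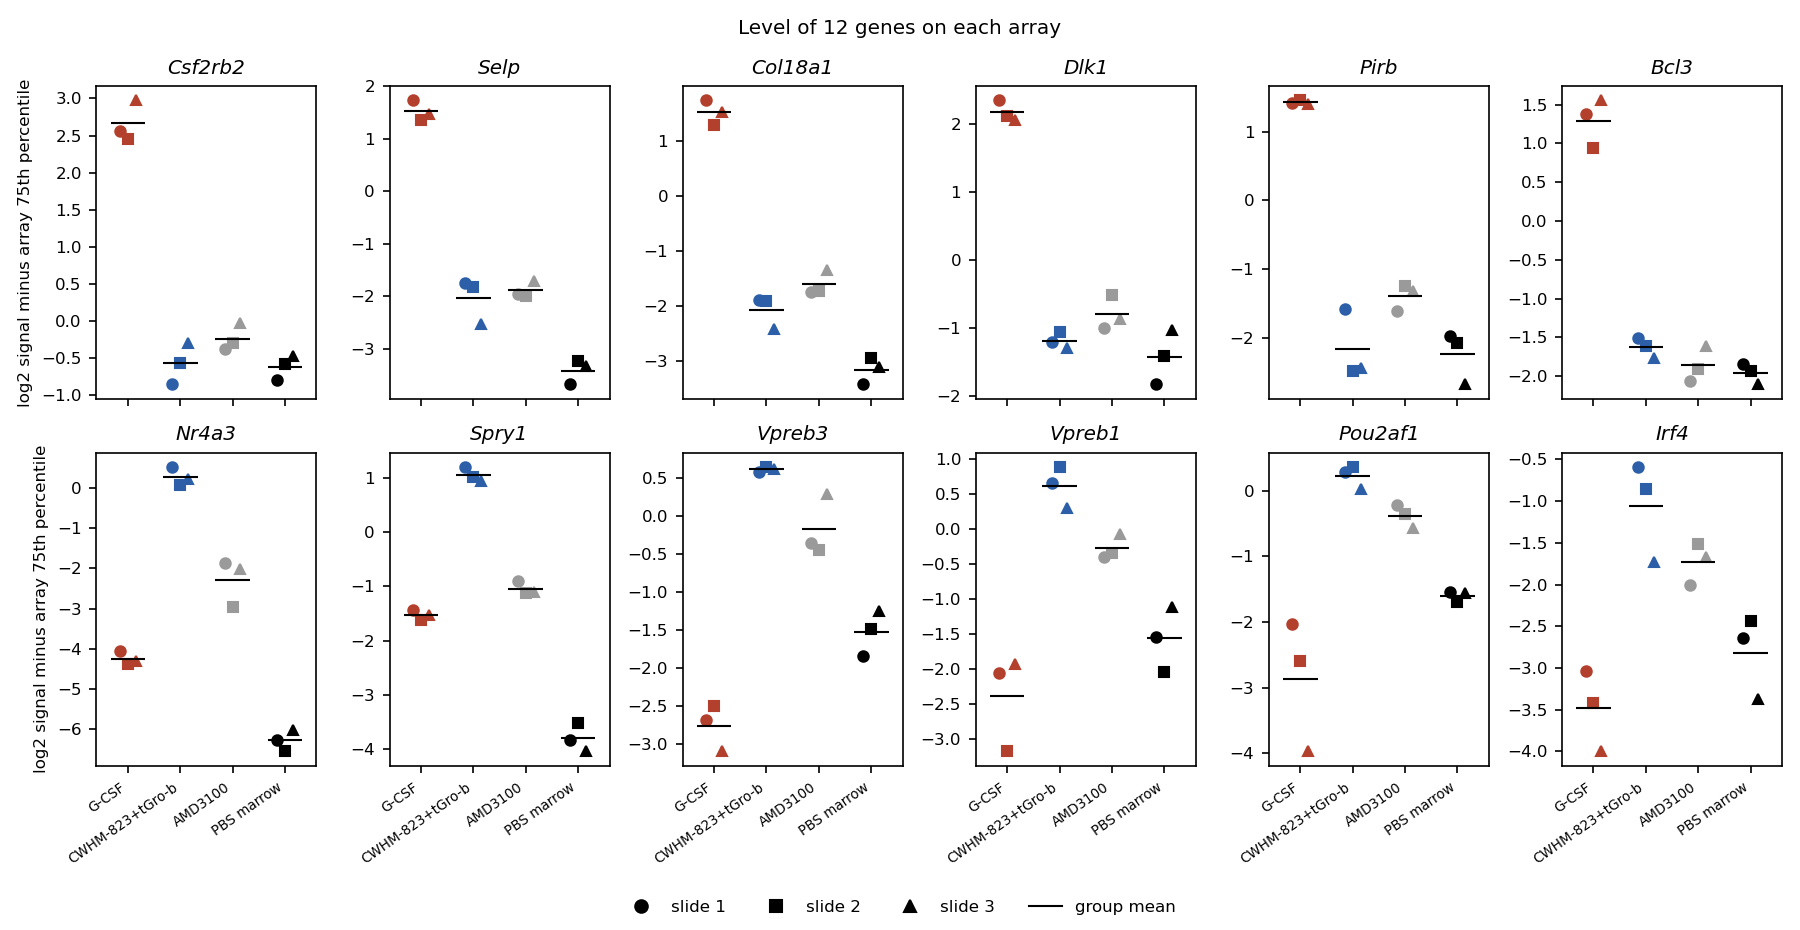
Each panel is 1 gene, with the level on each array (log2 signal minus the array's 75th percentile) by group; marker shapes are slides 1 to 3 and lines are group means, and the y axes differ. In the upper row the G-CSF arrays stand above the other 3 groups, and in the lower row the CWHM-823+tGro-b arrays stand above the G-CSF arrays, as for Nr4a3 at 0.07 to 0.51 against -4.38 to -4.05 with G-CSF.

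Among adhesion and homing genes, 6 of 35 were higher and 2 lower with G-CSF (median 0.19), against 1.12% and 1.08% of all genes. Without G-CSF array 1, 1 was higher, and without the slide block 1 was. Selp, P-selectin, which endothelium and platelets display to bind leukocytes, led the list. Its levels were 1.74, 1.37 and 1.48 with G-CSF and -1.75, -1.83 and -2.54 with CWHM-823+tGro-b (probe at mm9 chr1:166079660-166079719). The gap between the groups exceeded 3 log2 units, with AMD3100 at a mean of -1.89 and marrow at -3.42. The difference was 3.57 (SE 0.24, adjusted p = 0.000295). Summed markers of platelets reached 2.13 to 2.98 with G-CSF and 2.90 to 3.39 with CWHM-823+tGro-b, with 0 of 9 higher and 2 lower. Summed endothelial and stromal markers were 3.25 to 3.41 against 3.07 to 3.22, with 1 of 11 higher, Pecam1.

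Also in this list, the tetraspanin Cd9 (1.37, adjusted p = 0.00886), the integrin chain Itgb7, which pairs with the alpha chain of VLA-4 (1.17, adjusted p = 0.00857), the adhesion molecule Pecam1 (1.13, adjusted p = 0.0276) and S1pr1, the sphingosine-1-phosphate receptor that draws cells into blood (0.93, adjusted p = 0.0294), were higher. Itgb7 lost its call without G-CSF 1 (0.0567), Cd9 without G-CSF 1, G-CSF 3 or CWHM-823+tGro-b 2 (up to 0.0599), Pecam1 without any 1 of the 6 arrays (up to 0.137), and S1pr1 without any but G-CSF 2 (up to 0.146). Pecam1 and S1pr1 also missed the threshold without marrow array 2. Lower with G-CSF were Ccr9, a homing receptor for gut and thymus, and Slit2, a guidance cue, at -1.73 (SE 0.23, adjusted p = 0.00793).

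Among genes for direct targets of the mobilising agents in the series, Cxcr4, Itga4, Itgb1 and Cxcr2 did not pass. Cxcr4 is the target of AMD3100, which is not in this contrast. The intervals reached 1.1 for Itgb1 and 1.20 for Cxcr2, so differences of that size remain possible. Cxcr4, the receptor for CXCL12, had levels of 3.32, 3.74 and 2.95 with G-CSF and 3.68, 3.50 and 3.16 with CWHM-823+tGro-b, which overlapped, with a difference of -0.11 (95% interval -0.58 to 0.36, adjusted p = 0.742). Itga4, the alpha chain of VLA-4, differed by -0.14 (-0.55 to 0.26, adjusted p = 0.616), and its partner Itgb1 by 0.55 (-0.01 to 1.1, adjusted p = 0.202). Cxcr2, the receptor for Gro-beta, differed by 0.59 (-0.03 to 1.20, adjusted p = 0.214).

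Of the 22 matrix and protease genes tested, 3 were higher and 1 lower with G-CSF, with a median of -0.14, that of all genes. Among all genes 1.12% were higher and 1.08% lower. Col18a1, the collagen from which endostatin is cut, had levels of 1.73, 1.29 and 1.52 with G-CSF and -1.89, -1.90 and -2.41 with CWHM-823+tGro-b (probe at mm9 chr10:76514926-76514985). The arrays fell in separate ranges, with a difference of 3.58 (SE 0.23, adjusted p = 0.000244). Tgfbi, a matrix protein induced by TGF-beta, was outside the list and had 1.48, 1.11 and 1.41 against -2.51, -1.69 and -2.56, a difference of 3.59 (SE 0.31, adjusted p = 0.00106). Serpinb1a, an inhibitor of neutrophil elastase, was higher by 1.45 (SE 0.17, adjusted p = 0.00436), and the basement membrane collagen Col4a1 by 1.28 (adjusted p = 0.0113, up to 0.0723 without G-CSF 1 or 3). Thbs1, thrombospondin-1, which platelets release, was lower by 2.35 on the log2 scale (SE 0.22, adjusted p = 0.00153), and was well above background on 1 of 3 G-CSF arrays and all 3 CWHM-823+tGro-b arrays. With normexp correction its difference was -0.998 and did not pass (adjusted p = 0.132). Dlk1, a membrane protein related to the Notch ligands and expressed from the paternal allele, had levels of 2.35, 2.13 and 2.06 with G-CSF and -1.20, -1.06 and -1.30 with CWHM-823+tGro-b. Its ranges were narrow and separate, with a difference of 3.37 (SE 0.22, adjusted p = 0.000251) and AMD3100 and marrow means of -0.79 and -1.42. Vldlr, a lipoprotein receptor, was higher by 2.37 (SE 0.19, adjusted p = 0.000924), with its probes spanning 0.40 to 2.37.

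The list of cytoskeleton and nuclear envelope genes, in which some calcium-binding, annexin and galectin genes were placed, had the most increases. Its members were chosen with earlier results of these data known, so this rank may reflect the choice. Of its 32 genes, 11 were higher and 0 lower with G-CSF, against 1.12% and 1.08% of all genes, with a median of 0.62. Without the slide block 6 were higher, and without G-CSF array 1, 4 were. S100a4, a calcium-binding protein tied to cell motility, had levels of 4.63, 4.46 and 4.61 with G-CSF, against 2.17, 1.75 and 1.46 with CWHM-823+tGro-b. Every G-CSF array was well above every other, with a difference of 2.77 (SE 0.30, adjusted p = 0.00312) and AMD3100 and marrow means of 2.49 and 0.70. Its relative S100a6 had 2.32, 1.85 and 1.75 against -0.30, -0.84 and -1.55, a difference of 2.87 (SE 0.24, adjusted p = 0.000927). Anxa2, an annexin that joins membrane to actin, had 3.40, 3.06 and 3.10 against 1.00, 0.59 and 0.14. It was higher by 2.61 (SE 0.26, adjusted p = 0.00204). Lgals3, galectin-3, was higher by 2.86 (SE 0.39, adjusted p = 0.00857) and Anxa1 by 1.51 (adjusted p = 0.00862). Without G-CSF 1 the adjusted p was 0.0567 for Lgals3 and 0.0568 for Anxa1.

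Granule protease and myeloid priming genes were the next list by median. Of 23 tested, 6 were higher and 0 lower with G-CSF (median 0.54), against 1.12% and 1.08% of all genes. Csf2rb, described above with the cytokine receptors, was among the 6. Without the slide block 5 were higher, and without G-CSF array 1, 3 were. Ms4a3, a membrane protein of granulocyte and monocyte progenitors, had levels of 1.01, 0.53 and -0.12 with G-CSF and -4.14, -3.90 and -6.28 with CWHM-823+tGro-b. It was well above background on all 3 G-CSF arrays and on 1 CWHM-823+tGro-b array, so its difference of 5.25 (SE 0.66, adjusted p = 0.00595) rests in part on signals near background; it was 3.30 with normexp correction. Of the serine proteases of the primary granule, Ctsg, cathepsin G, had 4.03, 3.36 and 3.80 against 2.38, 1.61 and 1.77, with a difference of 1.81 (SE 0.26, adjusted p = 0.0098). Prtn3, proteinase 3, was higher by 1.66 (SE 0.23, adjusted p = 0.00862) and Cst7, a cathepsin inhibitor, by 1.74 (SE 0.21, adjusted p = 0.00452). Without G-CSF 1 the adjusted p was 0.064 for Ctsg, whose call also ended without CWHM-823+tGro-b 2, and 0.059 for Prtn3. Spi1, the myeloid transcription factor PU.1, was higher by 0.84 (SE 0.17, adjusted p = 0.0421), and that call ended without any 1 of the 6 arrays (up to 0.198), as well as without single marrow or AMD3100 arrays. Cebpa, the factor that opens the granulocyte programme, missed the threshold (0.98, adjusted p = 0.0513), as did Irf8, which favours monocytes and dendritic cells (-0.86, adjusted p = 0.064).

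Mature granulocyte markers did not stand apart between the groups. Summed neutrophil markers were 1.63 to 1.85 with G-CSF and 1.29 to 1.97 with CWHM-823+tGro-b, with 0 of 10 passing, and summed monocyte markers 4.79 to 4.97 against 4.59 to 5.24, with 0 of 12 passing. Marrow array 3, which entered the fit but not the contrast, had a neutrophil sum of 4.95. Without it 489 genes passed. In bulk RNA of sorted cells, fewer cells of a type and less RNA per cell cannot be told apart.

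**Figure D3:**
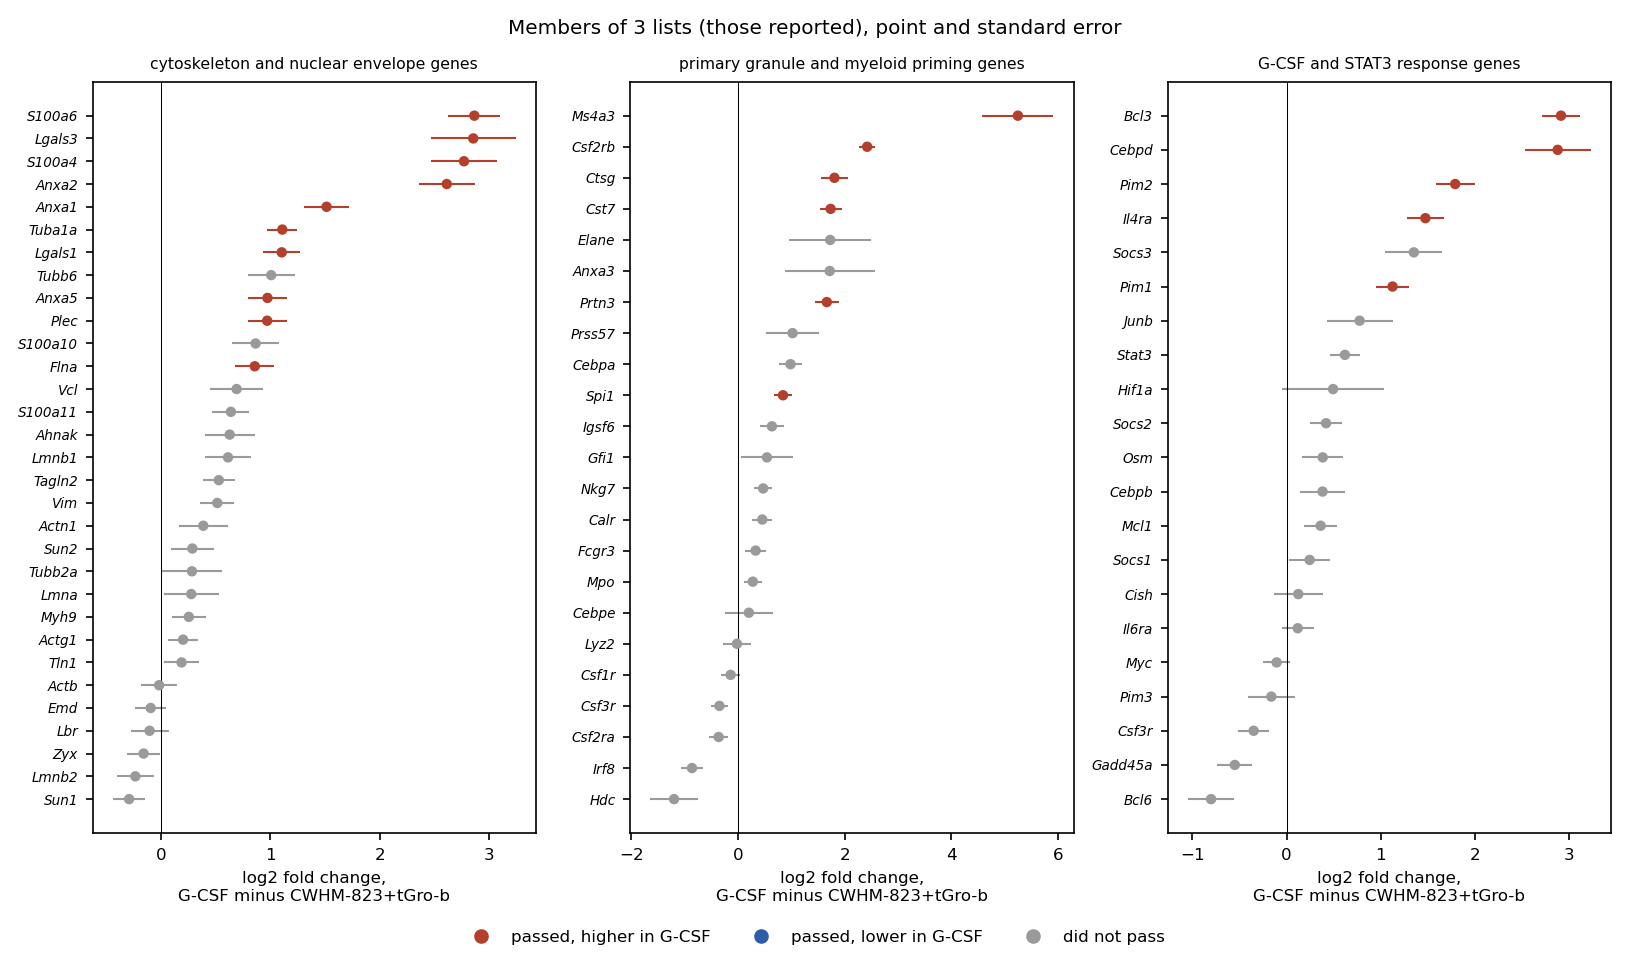
Points are log2 differences, G-CSF minus CWHM-823+tGro-b, of the reported members of 3 lists, with bars for the standard error; red points passed higher and grey points did not pass. Most members lie to the right of 0, with Bcl3 at 2.92 and S100a6 at 2.87; the point furthest right, Ms4a3, was well above background on 1 of 3 CWHM-823+tGro-b arrays.

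Pirb, a paired immunoglobulin-like receptor that inhibits myeloid and B cells, was the first of the 15 largest increases. It had levels of 1.42, 1.46 and 1.41 with G-CSF, against -1.59, -2.49 and -2.43 with CWHM-823+tGro-b (probe at mm9 chr7:3664137-3664196). The 3 G-CSF arrays were almost equal and all above the others. The difference was 3.60 (SE 0.26, adjusted p = 0.000357), or 12.1-fold, and the AMD3100 and marrow means were -1.39 and -2.24. Its activating relative Pira6 was higher by 2.70 (SE 0.31, adjusted p = 0.00382), and the receptor gene Mrgpra2b by 2.94 (SE 0.33, adjusted p = 0.00351). Both belong to families of near-identical genes, and Pirb is in the family of Pira6. For Pirb, Pira6 and Mrgpra2b, the member that gave the signal is therefore uncertain. Cd200r4, an activating receptor of the CD200 receptor family, was not well above background on any CWHM-823+tGro-b array and was at least 10.1-fold higher with G-CSF (measured means -0.77 and -5.69, adjusted p = 0.00774). Such a bound sets the mean of the bright group against, on each array of the dim group, the lowest signal well above background or the probe's own signal where that is higher. It applies to the main scaling, has no sampling error and is no lower limit for other settings. Across the alternative settings the log2 difference fell to 2.55 for Cd200r4, 1.56 for Map3k8 and 1.34 for Eps8. The MAP kinase kinase kinase Map3k8 was at least 5.19-fold higher (adjusted p = 0.0192, up to 0.0978 without G-CSF 1, G-CSF 3, CWHM-823+tGro-b 1 or CWHM-823+tGro-b 2) and the actin regulator Eps8 at least 4.09-fold higher (adjusted p = 0.00199). In all, 43 genes were well above background on the 3 G-CSF arrays and on no CWHM-823+tGro-b array, of which 19 passed; 33 were so the other way round, of which 13 passed.

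Other increases included Bhlhe40, a basic helix-loop-helix repressor, with levels of 1.63, 0.72 and 1.44 against -0.98, -2.41 and -2.10 and a difference of 3.10 (SE 0.37, adjusted p = 0.00452). Pmaip1, the BH3-only protein Noxa, had 1.32, 0.90 and 0.83 with G-CSF and -1.82, -1.54 and -1.69 with CWHM-823+tGro-b, a difference of 2.70 (SE 0.24, adjusted p = 0.00122). Together with Bbc3, the BH3-only protein Puma (1.19, adjusted p = 0.0402, and above the threshold without any 1 of the 6 arrays, marrow 1, marrow 2 or AMD3100 2, at up to 0.182), it was 1 of 2 p53 target and apoptosis genes of 21 that passed, both higher. Cdkn2d, an inhibitor of the G1 cyclin-dependent kinases, was higher by 1.97 (SE 0.19, adjusted p = 0.00173).

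Immediate early genes, which cells switch on within minutes of a stimulus, leaned lower with G-CSF: 7 of 32 passed lower and 2 higher, with a median of -0.35. Of all genes, 1.08% were lower and 1.12% higher. Without the slide block 4 passed lower and 0 higher, and without G-CSF 1, G-CSF 2, CWHM-823+tGro-b 1 or CWHM-823+tGro-b 3, 3 passed lower. Of the list, the orphan nuclear receptors Nr4a3 and Nr4a2 had the largest differences. Nr4a3 had levels of -4.05, -4.38 and -4.29 with G-CSF and 0.51, 0.07 and 0.22 with CWHM-823+tGro-b. The ranges were narrow and more than 4 log2 units apart, with AMD3100 between them at a mean of -2.28 and marrow below both at -6.27. The difference was -4.51 (SE 0.20, adjusted p = 3.94e-05), or 22.8-fold lower with G-CSF. The G-CSF levels lay near the lowest signals well above background on those arrays, -4.25, -4.42 and -4.60. The size of the fold thus rests in part on signals near background, and the difference ranged from -4.63 to -2.83 across the alternative settings. Nr4a2 had 0.53, -0.11 and 0.10 with G-CSF and 2.66, 2.44 and 2.49 with CWHM-823+tGro-b, against AMD3100 and marrow means of 0.78 and -1.04. It was lower by 2.36 on the log2 scale (SE 0.24, adjusted p = 0.00234), and the third member, Nr4a1, had a difference of -1.27 that did not pass (adjusted p = 0.0895).

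Egr3, a zinc finger factor of the same early wave, had levels of 2.91, 2.65 and 3.85 with G-CSF and 5.43, 4.91 and 4.93 with CWHM-823+tGro-b, with a marrow mean of -1.35. Its difference of -1.95 (SE 0.39, adjusted p = 0.04) lost its call without any 1 of 9 arrays, with up to 0.167 without G-CSF 1. The AP-1 factor Fosl2 (-1.29, adjusted p = 0.0322) and the Kruppel-like factor Klf4 (-1.27, adjusted p = 0.0276) were lower, with calls that ended without any 1 of the 6 arrays for Fosl2 (up to 0.128) and without any but CWHM-823+tGro-b 2 for Klf4 (up to 0.112, and also without marrow 2). Klf10 (1.02, adjusted p = 0.0135) and Ier3 (0.95, adjusted p = 0.0422) were higher; Klf10 lost its call without G-CSF 1, G-CSF 3, CWHM-823+tGro-b 2 or CWHM-823+tGro-b 3 (up to 0.0905) and Ier3 without any 1 of the 6 (up to 0.191), marrow 1 or 2, or AMD3100 2 or 3. Cd69, an early activation marker, differed by -0.34 (-0.83 to 0.15, adjusted p = 0.324). The part of the time of exposure in these differences was not tested. Sgk1, a kinase induced by glucocorticoids and by serum, was lower by 1.43 on the log2 scale (SE 0.27, adjusted p = 0.0318, up to 0.15 without any but G-CSF 2, or without marrow 2), and Ccl3, an inflammatory chemokine, by 2.01 (SE 0.33, adjusted p = 0.0198, up to 0.102 without any but G-CSF 2).

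By median, the list furthest from the rest held genes of the first B cell stages, and it too was chosen with earlier results known. Of 13 surrogate light chain and B cell progenitor genes, 7 were lower and 0 higher with G-CSF, with a median of -1.69. The shares of all genes were 1.08% and 1.12%. Without the slide block 6 passed, and without G-CSF 1, G-CSF 3, CWHM-823+tGro-b 1 or CWHM-823+tGro-b 2, 4 did. Vpreb3, a chaperone of the pre-B cell receptor, had levels of -2.68, -2.50 and -3.09 with G-CSF and 0.58, 0.65 and 0.62 with CWHM-823+tGro-b (probe at mm9 chr10:75412326-75412385). The CWHM-823+tGro-b arrays were nearly equal and far above the G-CSF arrays. The difference was -3.37 (SE 0.25, adjusted p = 0.000399), with AMD3100 and marrow means of -0.17 and -1.53. Vpreb1, the variable part of the surrogate light chain, had -2.05, -3.18 and -1.93 with G-CSF and 0.66, 0.89 and 0.31 with CWHM-823+tGro-b, a difference of -3.0 (SE 0.32, adjusted p = 0.00294). Its partner Igll1, the constant part, had -3.71, -3.25 and -3.91 against 0.10, -0.41 and -1.0. It differed by -3.19 (SE 0.46, adjusted p = 0.0114, up to 0.0689 without G-CSF 1, G-CSF 3, CWHM-823+tGro-b 1 or CWHM-823+tGro-b 2). The difference of Igll1 ranged from -3.62 to -2.06 across the alternative settings. Both probes lie close together, at mm9 chr16:16868559-16868618 and chr16:16861104-16861163.

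Further along the same path, Blnk, the adaptor of the pre-B cell receptor, had levels of -4.44, -1.96 and -2.95 with G-CSF and 0.23, 0.38 and 0.48 with CWHM-823+tGro-b, a difference of -3.48 (SE 0.42, adjusted p = 0.00487). It was well above background on 2 of 3 G-CSF arrays. Pax5, the factor that fixes B cell identity, was lower by 1.69 on the log2 scale (SE 0.20, adjusted p = 0.00452), and Cd79a, a signalling chain of the receptor, by 2.28 (SE 0.39, adjusted p = 0.0222, up to 0.0941 without any but G-CSF 2). Ebf1, which acts with Pax5, had a difference of -1.77 and missed the threshold (adjusted p = 0.0576). Pou2af1, a B cell co-activator outside the list, had -2.03, -2.59 and -3.97 against 0.29, 0.36 and 0.02, a difference of -3.09 (SE 0.33, adjusted p = 0.00312). Irf4, a factor of B and plasma cells, had -3.04, -3.42 and -4.0 against -0.59, -0.86 and -1.73, a difference of -2.43 (SE 0.26, adjusted p = 0.00312). Across the alternative settings the difference of Irf4 ranged from -2.59 to -1.41. Jchain, the joining chain of secreted IgM and IgA, was not well above background on any G-CSF array and at least 11.3-fold lower there (measured means -6.40 and -0.92, adjusted p = 0.00234). Its CWHM-823+tGro-b arrays stood at 0.22, -0.01 and -2.97. Across the alternative settings the difference of Jchain ranged from -6.34 to -2.49.

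Markers of mature B cells had a median difference of -0.78. Their summed level was 4.49, 5.63 and 4.97 on G-CSF arrays 1 to 3 and 4.88, 5.66 and 5.56 on CWHM-823+tGro-b arrays 1 to 3. The ranges overlapped, and on each of the 3 slides the sum was lower with G-CSF. Of these markers 2 of 10 were lower, Pax5 and Cd79a, which were also described above with the B cell progenitor genes. Ms4a1 and Ighd were among the markers that did not pass the background filter. Summed T cell markers were 2.62 to 3.25 against 3.21 to 3.58, with 2 of 8 lower, and summed dendritic cell markers 5.13 to 5.46 against 5.68 to 6.27, with no overlap of the sums and 3 of 12 lower, all of them MHC class II genes (H2-Eb1, H2-Ab1 and Cd74). The part of such cells in the lymphoid and MHC class II differences was not tested.

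Lymphoid priming genes as a list had 6 of 23 lower and 0 higher with G-CSF (median -0.66), against 1.08% and 1.12% of all genes. Without the slide block 2 were lower, and without G-CSF 3 or CWHM-823+tGro-b 2, 1 was. Ccr9 had levels of -1.73, -1.72 and -2.24 with G-CSF and 0.79, 0.09 and -0.10 with CWHM-823+tGro-b, with AMD3100 and marrow means of 0.65 and -0.26. It was lower on every G-CSF array, by 2.16 on the log2 scale (SE 0.22, adjusted p = 0.00234). Il7r, the interleukin-7 receptor that lymphoid progenitors need, was at least 5.22-fold lower with G-CSF (measured means -5.70 and -2.04, adjusted p = 0.0174, up to 0.0865 without G-CSF 3, CWHM-823+tGro-b 2 or CWHM-823+tGro-b 3). The call of Il7r also ended with normexp correction, and its log2 difference ranged from -4.3 to -1.22 across the alternative settings. Dntt, the terminal transferase of early lymphoid cells, had 3.01, 2.73 and 2.96 against 4.17, 3.77 and 4.44, a difference of -1.23 (SE 0.20, adjusted p = 0.0201). Tcf7, which sets the T cell path, was lower by 1.76 on the log2 scale (SE 0.33, adjusted p = 0.0312). The call ended without any 1 of the 6 arrays for Dntt (up to 0.11) and without any but CWHM-823+tGro-b 3 for Tcf7 (up to 0.135, and also without marrow 2). Flt3, the receptor of multipotent progenitors with lymphoid potential, had 1.85, 1.46 and 1.42 with G-CSF against 2.77, 2.31 and 2.49, and its difference of -0.95 missed the threshold (adjusted p = 0.0504).

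Of 10 MHC class II genes, 3 were lower and 0 higher (median -0.64), against 1.08% and 1.12% of all genes. Without the slide block 2 were lower, and 1 was without G-CSF 1, G-CSF 3, CWHM-823+tGro-b 1 or CWHM-823+tGro-b 2. H2-Eb1, a beta chain, had levels of -1.55, -4.53 and -3.70 with G-CSF and 1.61, 0.53 and 1.11 with CWHM-823+tGro-b. The G-CSF arrays were spread widely and all lower, and the probe was well above background on 2 of 3 of them, so its difference of -4.34 (SE 0.56, adjusted p = 0.00681) rests in part on a signal near background. Cd74, the invariant chain, had 0.19, -0.78 and -0.28 against 2.80, 1.96 and 1.74, a difference of -2.46 (SE 0.39, adjusted p = 0.0181). H2-Ab1, another beta chain, was lower by 1.23 on the log2 scale (SE 0.21, adjusted p = 0.0241). The call of Cd74 ended without G-CSF 1, G-CSF 3, CWHM-823+tGro-b 1 or CWHM-823+tGro-b 2 (up to 0.0962), and that of H2-Ab1 without any 1 of the 6 (up to 0.116). H2-Aa, also well above background on 2 of 3 G-CSF arrays, differed by -2.08 and did not pass (adjusted p = 0.0864).

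**Figure D4:**
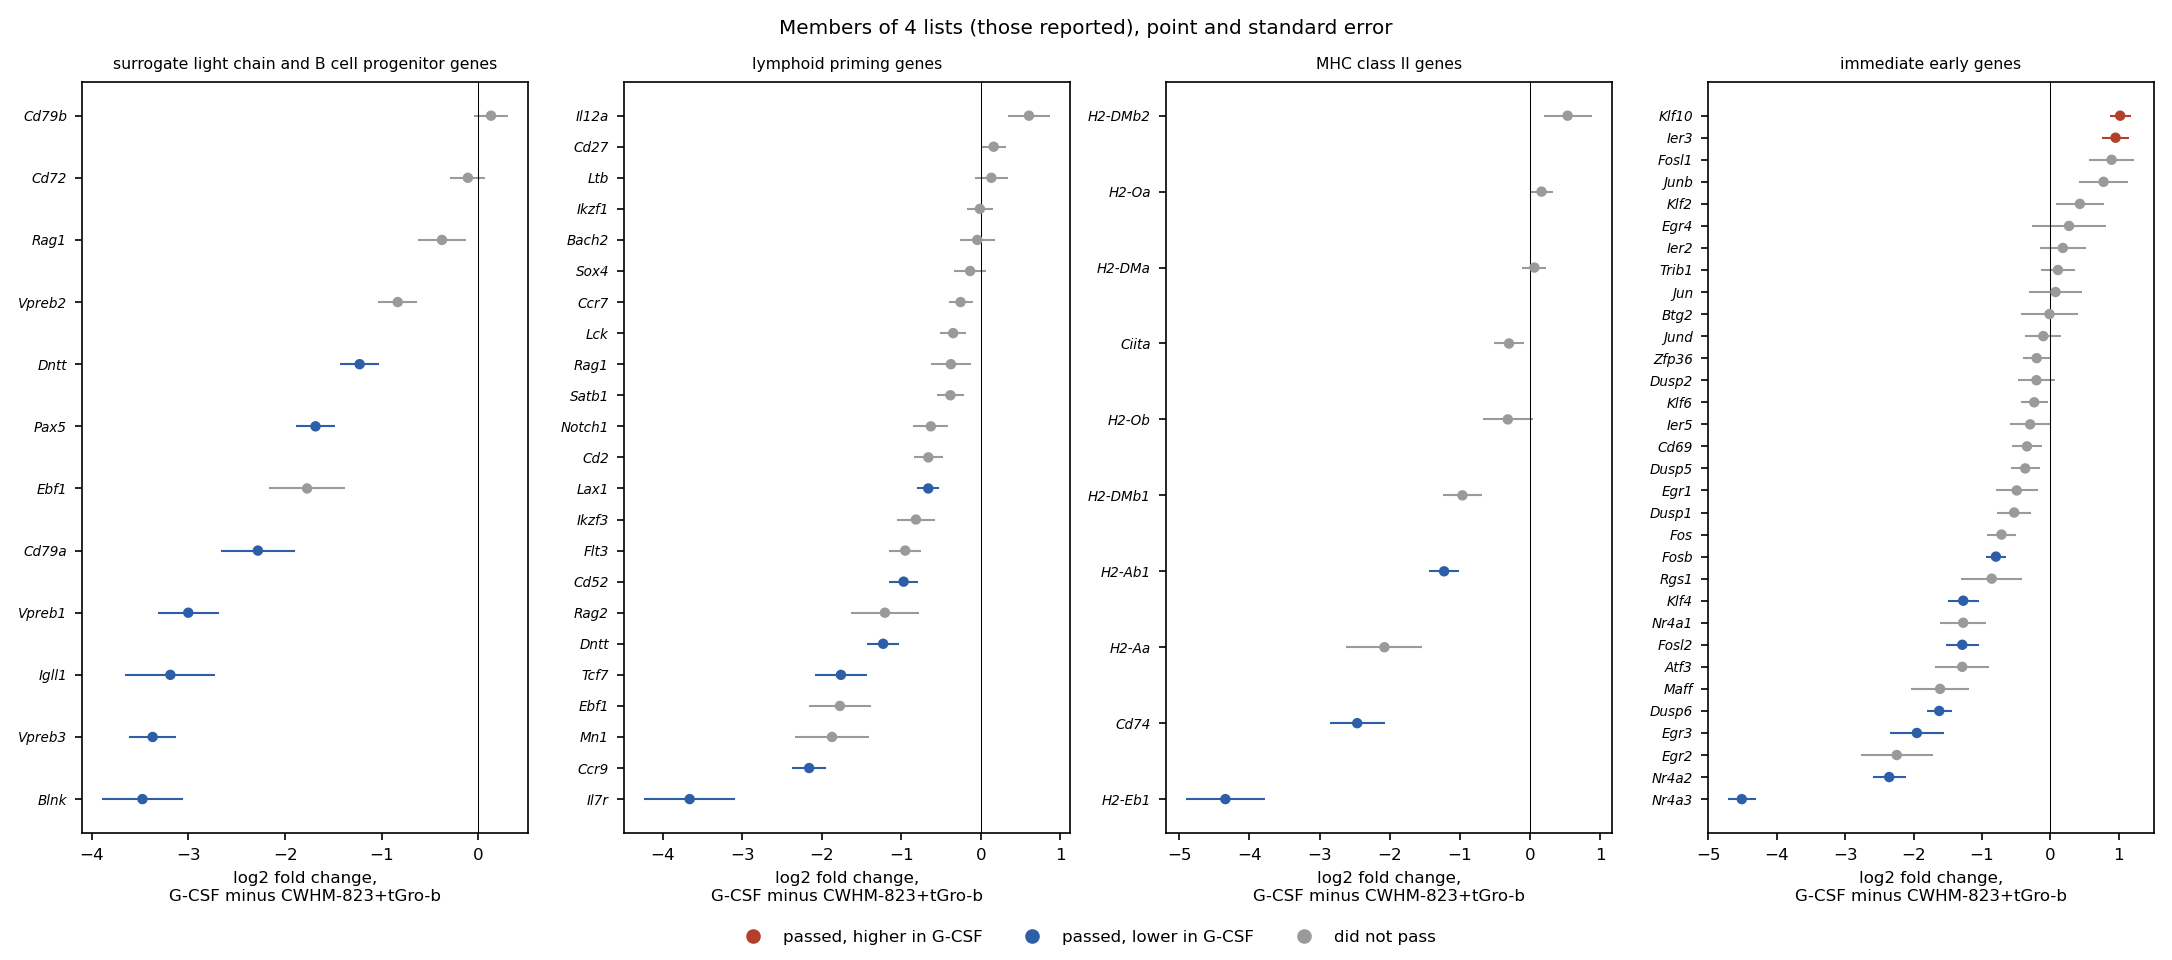
Points are log2 differences, G-CSF minus CWHM-823+tGro-b, of the reported members of 4 lists, with bars for the standard error; blue points passed lower, red points passed higher and grey points did not pass. Members that passed lower include Vpreb3 at -3.37, Cd74 at -2.46 and Nr4a3 at -4.51, and Klf10 and Ier3 are the 2 that passed higher.

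Stem cell genes as a list had a median of -0.14, that of all genes. Of 31 tested, 4 were lower and 0 higher with G-CSF, against 1.08% and 1.12% of all genes. The groups did not overlap for 7 that were lower and 3 that were higher, against 6.78% and 6.46% of all genes. In the list 0 passed without the slide block or without G-CSF 1, CWHM-823+tGro-b 1 or CWHM-823+tGro-b 2. Mmrn1, multimerin, was lower by 1.40 on the log2 scale (SE 0.22, adjusted p = 0.0172, up to 0.094 without those 3 arrays). Mecom, the factor EVI1, was lower by 0.92 (SE 0.19, adjusted p = 0.0428) and Hmga2, a chromatin protein of fetal stem cells, by 0.81 (SE 0.17, adjusted p = 0.0458), both with calls that ended without any 1 of the 6 (up to 0.154 and 0.189) or marrow 1 or 2, and for Hmga2 also AMD3100 1 or 3. Hlf, a factor of self-renewing cells, differed by -0.66 (-1.03 to -0.30, adjusted p = 0.0711).

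The antigens that define the sort were compared too. Kit had levels of 3.42, 3.17 and 3.33 with G-CSF and 3.64, 3.07 and 3.57 with CWHM-823+tGro-b, which overlapped, with a difference of -0.12 (-0.44 to 0.21, adjusted p = 0.61). Ly6a, the Sca-1 antigen, had 0.81, 0.61 and 0.69 against -0.25, -0.52 and -1.35, a difference of 1.41 (SE 0.26, adjusted p = 0.0312, up to 0.146 without G-CSF 1, G-CSF 3, CWHM-823+tGro-b 2, CWHM-823+tGro-b 3, marrow 1 or marrow 2). Cd48, a marker that separates progenitors from the most primitive stem cells, was higher by 1.12 (SE 0.18, adjusted p = 0.0181, up to 0.106 without G-CSF 1, G-CSF 3, CWHM-823+tGro-b 2 or CWHM-823+tGro-b 3). Cd34 differed by 0.05 (-0.28 to 0.38, adjusted p = 0.846). Ly6a and Cd48 were the 2 of 12 LSK markers that passed.

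Erythroid genes had 3 of 25 lower and 1 higher (median -0.34), and megakaryocyte and platelet genes 2 of 21 each way (median -0.31). Of all genes, 1.08% were lower and 1.12% higher. In both lists 0 passed lower without the slide block or without G-CSF 1, CWHM-823+tGro-b 1 or CWHM-823+tGro-b 3, and in the megakaryocyte list also without G-CSF 3. The 1 erythroid increase was lost without marrow 2, CWHM-823+tGro-b 2 or 3, or any G-CSF array, and 1 megakaryocyte increase passed without the slide block, G-CSF 1, G-CSF 3 or CWHM-823+tGro-b 2. Car1, the carbonic anhydrase of early erythroid cells, had levels of -1.99, -1.81 and -2.66 with G-CSF and 1.25, -0.02 and -0.01 with CWHM-823+tGro-b, with a difference of -2.56 (SE 0.48, adjusted p = 0.0325). Pf4, platelet factor 4, had -2.52, -2.08 and -3.08 against 0.42, -0.88 and -0.43, a difference of -2.26 (SE 0.33, adjusted p = 0.0116). The adjusted p of Car1 was up to 0.147 without any but G-CSF 2 (and also without marrow 2), and that of Pf4 up to 0.0659 without G-CSF 1, G-CSF 3, CWHM-823+tGro-b 1 or CWHM-823+tGro-b 3. Klf1, the erythroid master factor, had a difference of -2.24 that did not pass (adjusted p = 0.0591). Summed erythroblast markers were 7.22 to 7.29 with G-CSF and 7.24 to 7.90 with CWHM-823+tGro-b, with 1 of 7 lower. The protease Mcpt2 differed by -2.45 (SE 0.43, adjusted p = 0.0259, up to 0.122 without any 1 of the 6), with summed mast cell markers of 2.56 to 2.74 against 2.50 to 2.59. Igf2r, the receptor that clears IGF2, had -2.37, -3.38 and -2.88 against 0.11, -0.46 and -0.73, a difference of -2.52 (SE 0.29, adjusted p = 0.00388), with AMD3100 and marrow means of -1.41 and -0.03.

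Lists of growth and housekeeping genes had few or no members past the threshold. Among the lists with 0 of their members passing were 28 proteasome genes (median 0.44), 53 respiratory chain genes (0.34), 17 G1 cyclin and E2F genes (0.35), 34 DNA replication genes (0.24), 48 cytosolic ribosomal protein genes (-0.02), 27 ribosome biogenesis and MYC target genes (0.10), 23 homologous recombination and Fanconi genes (0.02) and 16 replication-dependent histone genes (-0.19). Those medians stand beside -0.14 for all genes, and the counts in this paragraph beside 1.12% of all genes higher and 1.08% lower. Interferon response genes had 2 of 33 each way (median 0.11), with Gbp3, a guanylate-binding protein, at 1.54 (adjusted p = 0.0202) and Rsad2, viperin, at -1.07 (adjusted p = 0.0234). Their calls ended without G-CSF 1, G-CSF 3, CWHM-823+tGro-b 2 or CWHM-823+tGro-b 3 for Gbp3 (up to 0.112) and without any but CWHM-823+tGro-b 2 for Rsad2 (up to 0.12).

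**Figure D5:**
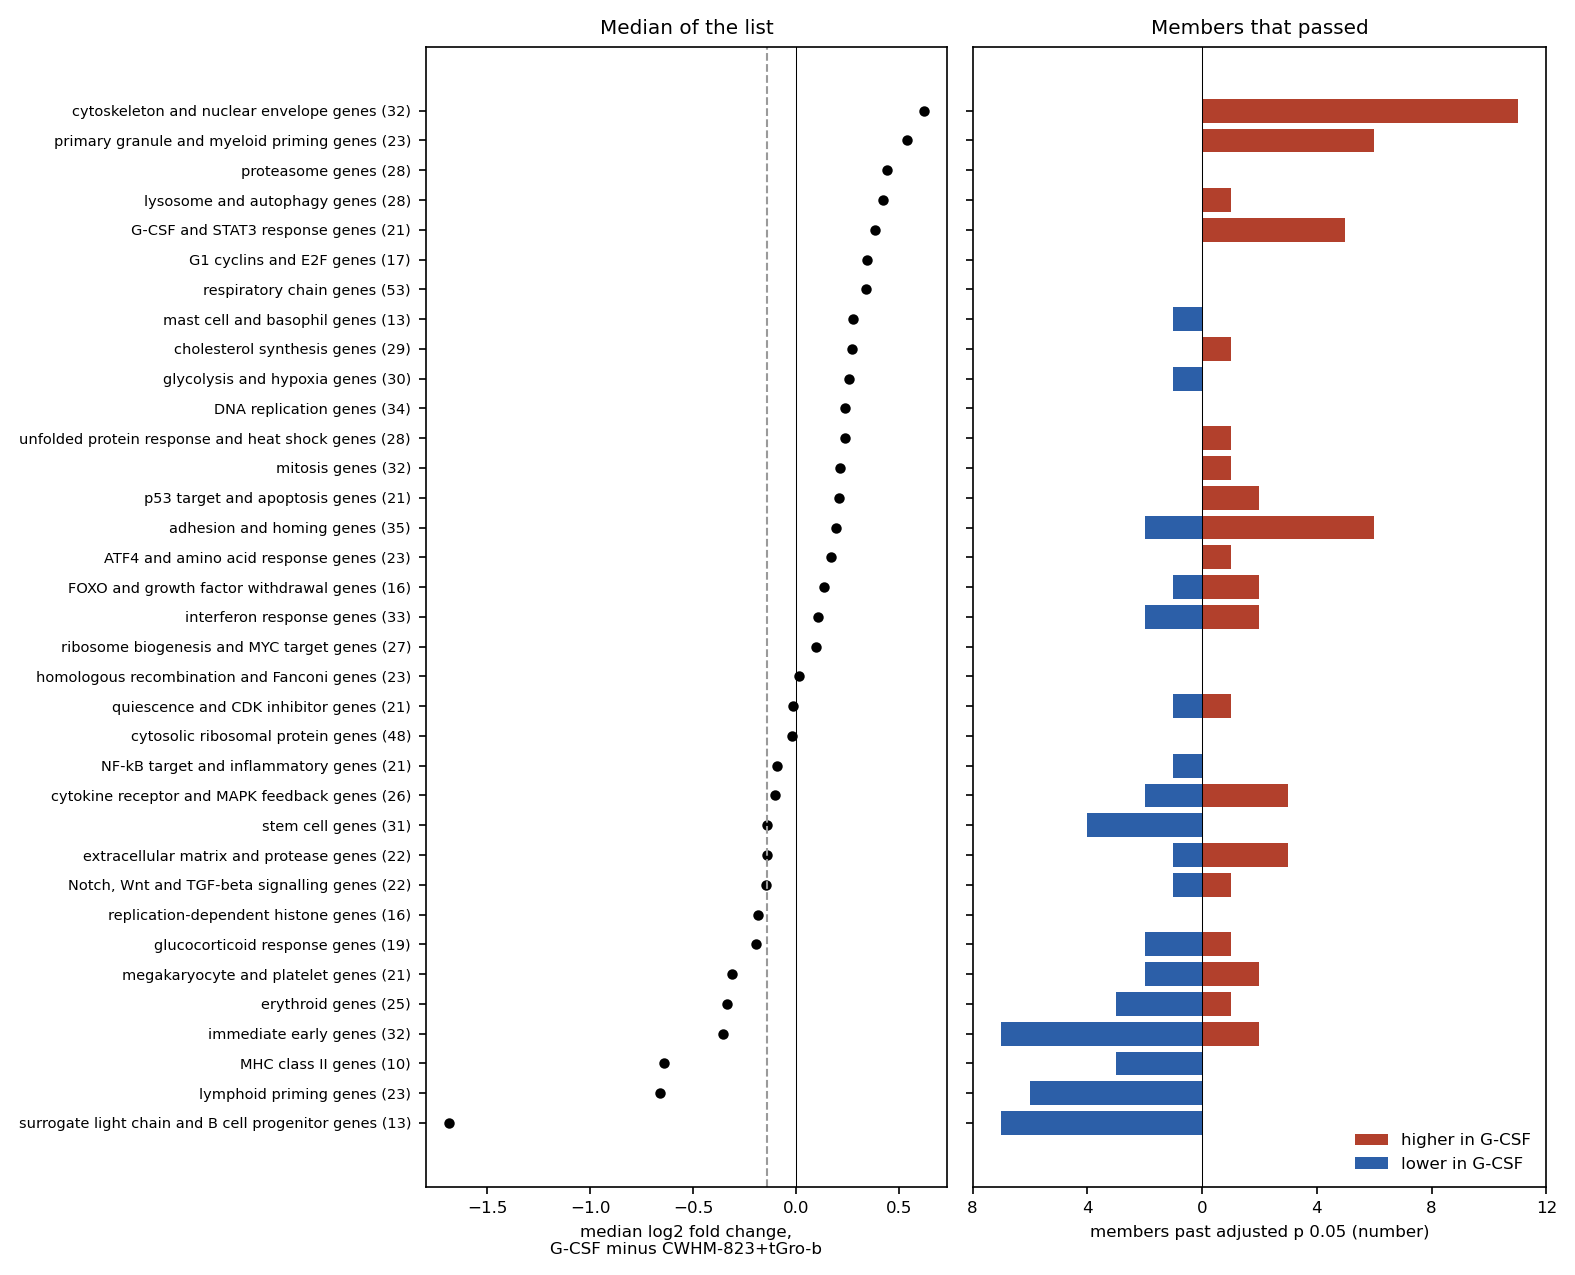
Left, the median log2 difference, G-CSF minus CWHM-823+tGro-b, of each of 35 lists (number of genes tested in brackets), with a dashed line at -0.14, the median of all genes. Right, bars count the members that passed, higher with G-CSF to the right and lower to the left; the cytoskeleton list has 11 higher and the surrogate light chain list 7 lower.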

How the data were processed

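RNA of LSK cells was measured on 12 Agilent arrays with 1 dye (Cy5), 4 on each of 3 slides. Per the file headers, the authors extracted the deposited intensity values with Agilent Feature Extraction 11.5.1.1, with background subtraction and detrending within each array and no scaling between arrays. Another deposited table gives 30354 probes as intensity values that the authors had normalized, on a linear scale with medians of 938 to 945; the method is not given in the sources used here.

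Spots that were controls or outliers were dropped and repeated spots averaged, which left 39429 probes. Levels are log2 processed signals less the 75th percentile of their array. The filter kept probes with a value on every array that stood well above background throughout at least 1 of the 4 groups. Symbols came from the scanner output, updated by accession from a GRCm38.p6 gene table; for each of 23700 genes the brightest probe on average was used. The scanner output gives positions in mm9, and 381 genes had one on another chromosome than the table gives.

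With limma 3.58.1, all 12 arrays entered a model of group and slide (R 4.3.3; lmFit and eBayes, 6 residual and 3.08 prior degrees of freedom), and the contrast G-CSF minus CWHM-823+tGro-b was tested 2-sided with Benjamini-Hochberg adjustment over all genes; 95% intervals are per gene. Same-numbered arrays share a slide: after group means were removed, the 3 same-slide pairs of the compared groups had an r of 0.425 to 0.616, against -0.447 to -0.0389 for the 6 other pairs. In simulated data of 23700 genes for this comparison, 0%, 24%, 84% and 94% of genes changed by 0.5, 1, 2 and 3 on the log2 scale were recovered, with 3 false calls. The simulation changed 50 genes at each size and no others, with noise drawn independently for each gene. In the data 523 genes passed, so the shares recovered there may differ.

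Named were the 15 largest changes each way among genes that passed with the same sign on all slides, well above background on all 6 arrays and with a proper symbol, the 5 largest bounds each way, up to 6 passing members each way and 3 others of each list, and 12 genes of mobilisation, the sort and activation (such as Cxcr4, Kit and Cd69). Some members that the rule names are not reported here, and counts over lists include them. The 35 gene lists, the 11 marker lists and the members were chosen with earlier results of these data known. Alternatives were quantile normalization, normexp correction (offset 50), the authors' table, 3 other filters, no slide block, fits of 6 or 9 arrays, another variance prior, other uses of probes, a 2-fold minimum and leaving out each array.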

Additional observations from a re-analysis of the deposited data

How the results depend on the processing

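Against 523 genes (266 higher and 257 lower with G-CSF), other settings gave these counts, and the cause of each shift was not tested. After quantile normalization 367 passed (239 higher, 128 lower), after normexp correction 324 (224 higher, 100 lower), with the authors' normalized values 235 passed (150 higher, 85 lower) and with no filter on dim probes 296 (172 higher, 124 lower). The share of calls that were higher was 50.9%, against 65.1%, 69.1%, 63.8% and 58.1% under those 4 settings. Without the replicate block that pairs arrays by slide, 149 passed (88 higher, 61 lower), and the block was kept because same-slide arrays deviated together. The fit of the 6 compared arrays alone, with fewer residual degrees of freedom, gave 18 (9 higher, 9 lower), that of the 9 blood arrays 209 (114 higher, 95 lower), and an intensity trend with a robust prior 952 (510 higher, 442 lower). With 1 array left out, totals were 129 to 629, higher calls 79 to 314 and lower calls 50 to 315. Chosen after seeing the data were quantile normalization without the block, with 148 (92 higher, 56 lower), and the compared groups from slides 1 and 2 only, with 97 (42 higher, 55 lower), slides 1 and 3, with 90 (47 higher, 43 lower), and slides 2 and 3, with 69 (41 higher, 28 lower). The other filters, uses of probes and 2-fold minimum gave 388 to 667. Across these settings no named gene changed sign with its call; 9 of the 106 that passed did so in every setting where tested: Csf2rb2, Csf2rb, Selp, Col18a1, Dlk1, Vldlr, Nr4a3, Vpreb3 and Spry1. Genes near background carry little precision, and 2-fold changes were recovered in 24% of simulated cases, so a gene that did not pass is not shown to be alike in both groups.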

Other observations

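The genes in these paragraphs were chosen after their values were seen, and no pattern among them was tested. Of 105 entries tested that the scanner output describes as immunoglobulin chains, 23 passed lower and 0 higher with G-CSF, against 1.08% and 1.12% of all genes. Of those 23, 20 were well above background on all 6 arrays. The median log2 difference of the 105 was -0.95. The arrays of the groups did not overlap for 34 of the 105, all lower with G-CSF, against 6.78% of all genes. Variable region probes share sequence, so these entries are not independent. Other lymphoid genes lower with G-CSF were Ly6d, which marks B-lineage commitment among lymphoid progenitors, with levels of -2.76, -1.37 and -1.76 against -0.01, -0.17 and -0.14 with CWHM-823+tGro-b (difference -1.86, SE 0.28, adjusted p = 0.0133), and Gpr171, an orphan receptor, with 3.11, 2.86 and 3.31 against 4.82, 4.31 and 4.74 (difference -1.53, SE 0.16, adjusted p = 0.00234). Tnfsf11, the cytokine RANKL, was not well above background on any G-CSF array and was on all 3 CWHM-823+tGro-b arrays (adjusted p = 0.000545).

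Clec4e, the C-type lectin Mincle, had levels of 0.92, 0.48 and 0.82 with G-CSF and -0.65, -1.66 and -0.86 with CWHM-823+tGro-b (difference 1.80, SE 0.26, adjusted p = 0.0117). The inflammatory caspases Casp4 (difference 1.32, adjusted p = 0.00832) and Casp1 (1.01, adjusted p = 0.0352) and the Toll-like receptor adaptors Myd88 (2.15, adjusted p = 0.0135) and Tirap (1.02, adjusted p = 0.0197) were higher too, Myd88 being well above background on 2 of 3 CWHM-823+tGro-b arrays. Fcgr2b, the inhibitory Fc receptor, had 0.06, -0.48 and 0.04 against -1.82, -1.96 and -2.44 (difference 1.95, SE 0.24, adjusted p = 0.00536).

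Among Notch ligands the 2 Jagged genes had opposite signs, Jag1 at 1.47 (SE 0.27, adjusted p = 0.0318) and Jag2 at -1.58 (SE 0.26, adjusted p = 0.0202). Meg3, the maternally expressed RNA of the imprinted region that also holds Dlk1, had levels of 0.14, 0.10 and 0.43 with G-CSF and -2.22, -1.86 and -1.80 with CWHM-823+tGro-b (difference 2.18, SE 0.31, adjusted p = 0.00925). Of its 2 probes this 1 passed, and the other differed by -0.18. Lower with G-CSF were Crem, a repressor of cyclic AMP-responsive transcription, by 1.61 on the log2 scale (SE 0.22, adjusted p = 0.00886), and Akap12, a kinase scaffold, by 2.24 (SE 0.24, adjusted p = 0.00312). Akap12 also had 2 probes, of which 1 passed, and the other differed by -0.89.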
